A study of Homo sapiens with 6 samples.

Results

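Fibronectin, the collagens, the laminins and the other proteins that cells secrete to build the extracellular matrix were examined in neuroblastoma cells depleted of the long noncoding RNA CyCoNP. FN1, the fibronectin gene, rose upon this depletion, and the question was whether its rise was accompanied by that of other matrix genes. A list of 54 matrix genes was used, matched by symbol to the 60676 gene rows of the deposited tables, and all 54 were found. The list was drawn up by function, with earlier results of these data known. The study had tested the upregulated genes of the same libraries for ontology terms. It found poor enrichment, with extracellular structure organization as the single significant category.

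The matrix is made of a few kinds of proteins. Fibrillar collagens and fibronectin form the fibres of the interstitial matrix, whereas type IV collagen, laminins, nidogens and heparan sulphate proteoglycans form the sheet-like basement membrane. Neuroblastoma derives from sympathoadrenal cells of the neural crest, and its cells rest on laminins and fibronectin through integrins when they attach or extend neurites.

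RNA was taken from the human neuroblastoma line SK-N-BE after 1.5 days in differentiation medium of reduced serum with 10 μM retinoic acid, which drives these cells towards a neuronal state. Before differentiation the cells were transfected with scrambled siRNA (si-SCR, 3 libraries) or with pooled siRNAs that target exon sequence of CyCoNP (si-CyCoNP, 3 libraries). Both groups thus share the transfection, the medium and the retinoic acid, and no group was left untransfected. All values come from 1 cell line and 1 siRNA pool, so an effect of CyCoNP loss and an off-target effect of the pool cannot be told apart. Nothing in the labels says that the replicates came from separate cultures, so the p-values measure the spread between these libraries, which may be technical.

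Promoter sequences are shown for FN1 and for the COL4A1 and COL4A2 pair, since FN1 had the largest fold change among the tested matrix genes and both type IV collagen genes, which start head to head, were at higher levels in every si-CyCoNP library. The stretches are from RefSeq (GRCh38.p14), 30 bases each, 5′ to 3′ on the strand of the named gene. Capitals mark the motifs searched, TGACGTCA (the cyclic AMP response element, which reads the same on both strands) and CCAAT (on either strand).
FN1, minus strand, chr2:215436225-215436254: ccgTGACGTCAcccggagcccgggCCAATc
COL4A2, plus strand, chr13:110307167-110307196: gggccgagctccCCAATttgttggcgctgc
The FN1 stretch runs from 186 to 157 bases upstream of the start in RefSeq, which lies a few bases inside the GENCODE gene boundary given with its values. The COL4A2 stretch lies from 117 to 88 bases upstream of its own RefSeq start (position 110307284) and from 10 to 39 bases upstream of that of COL4A1, which is transcribed in the opposite direction from a start 127 bases away. Of the 54 matrix genes 39 had an entry among the 35116 promoters of 300 bases, and TGACGTCA was present in 1 of these 39 (FN1) and in 1.85% of all promoters. CCAAT was present in 14 of the 39 genes and in 34.6% of all promoters. These matches describe the letters of the windows and not sites of binding.

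The libraries held between 3762009 and 4799407 counted fragments. CyCoNP, which is transcribed from LINC02381, fell from 14.4 ± 1.31 to 1.10 ± 0.498 FPKM (fragments per kilobase of gene, scaled to the fragments counted in the library, mean ± SD, n = 3), a 13.7-fold decrease. On the first principal component (51.4% of the variance) the si-SCR libraries lay at -34.8, -35.5 and -20.9 and the si-CyCoNP libraries between 29.2 and 32.2, so that si-SCR replicate 3 was the control nearest to the other group. The identity of the cells was checked with marker lists. All 15 adrenergic neuroblastoma genes reached 1 FPKM in either group, and 12 were lower and 1 higher in si-CyCoNP (past an adjusted p of 0.05 in edgeR, as for the other lists). Over all genes tested, 14.2% passed in each direction. The summed level of the 15 genes was 3232 to 3704 FPKM in si-SCR against 2552 to 2750 FPKM in si-CyCoNP. Of 15 mesenchymal and fibroblast genes 4 (PRRX1, TWIST2, FAP and MEOX1) had no count in any library. Of the 8 tested, FOSL1 was higher, from at most 3 counts in a si-SCR library, and SNAI2 and THY1 were lower. The summed level of the 15 genes, most of it TWIST1 and THY1, overlapped between the groups, at 103.6 to 122.7 and 102.9 to 113.2 FPKM. Among 8 Schwann and glial genes 5, with SOX10 and FOXD3 at 0, stayed at or under 3 counts, and PMP22 was lower in si-CyCoNP. PECAM1, KDR and HBB, of 6 endothelial and blood genes, had no count, and CD14 was higher. The summed level of this list, nearly all of it CD14, was 1.62 to 1.97 FPKM for si-SCR and 2.49 to 5.51 FPKM for si-CyCoNP. The part of any cell type in the results that follow was not tested, and in bulk RNA fewer cells of a type cannot be told apart from less RNA per cell.

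Matrix genes moved in both directions. Of the 54 genes, 26 reached a mean of 1 FPKM in either group and were tested, and 16 of the 26 passed an adjusted p of 0.05 (edgeR quasi-likelihood test over 13966 genes), 9 higher and 7 lower in si-CyCoNP. Over all genes tested, 28.4% passed this threshold, 14.2% higher and 14.2% lower. With a log2 fold change (log2FC, si-CyCoNP over si-SCR, given with its standard error, SE) beyond 1 as well, the rule by which a gene is said here to be called, 5 matrix genes were called higher (FN1, COL1A1, COL3A1, COL4A2 and NID2) and 3 lower (LAMA5, AGRN and SERPINF1), against 5.26% of all genes tested (2.28% higher and 2.98% lower). The median log2FC of the 26 genes was 0.27, from -2.12 to 2.88, and that of all genes tested was 0.01. The 9 higher and the 5 called higher include FN1, whose rise was known beforehand and prompted the question, so FN1 does not count towards the answer. These counts are descriptions, because the list was chosen with results known. In addition, 8 of the 26 genes passed the expression filter through a single group. These were FN1, COL1A1, COL3A1, COL9A3 and COL4A2 through si-CyCoNP and LAMA5, AGRN and SERPINF1 through si-SCR. The other 18 reached 1 FPKM in both groups, and 9 of these passed an adjusted p of 0.05. The groups did not overlap for 17 of the 26 genes (65.4%), and for 40.3% of all genes tested. None of the 8 called genes had a group at or under 3 counts in every library.

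**Figure D1:**
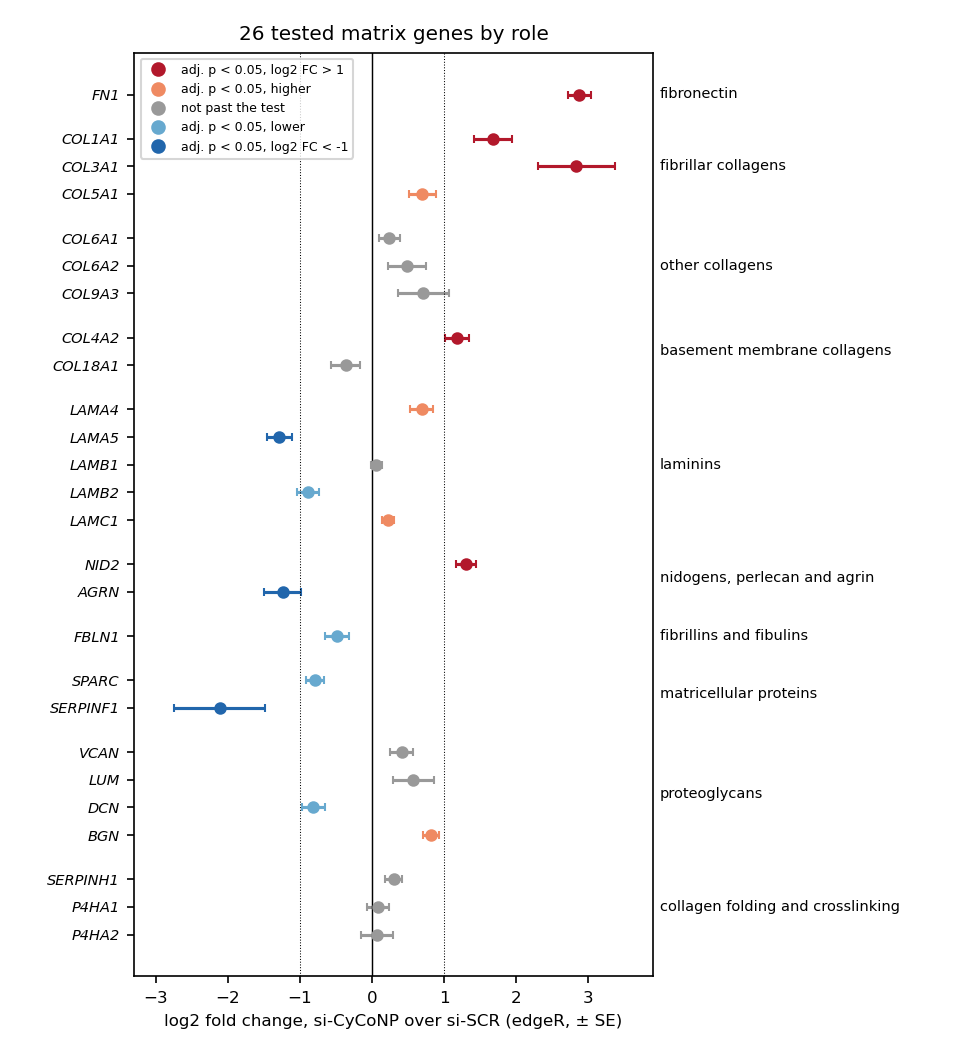
Log2 fold change (si-CyCoNP over si-SCR, edgeR) of the 26 tested matrix genes, with the standard error as bars, grouped by role; dotted lines mark a log2 fold change of 1 in either direction. FN1 and COL3A1 lie farthest to the right, SERPINF1 farthest to the left, and the laminin chains lie on both sides of 0.

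**Figure D2:**
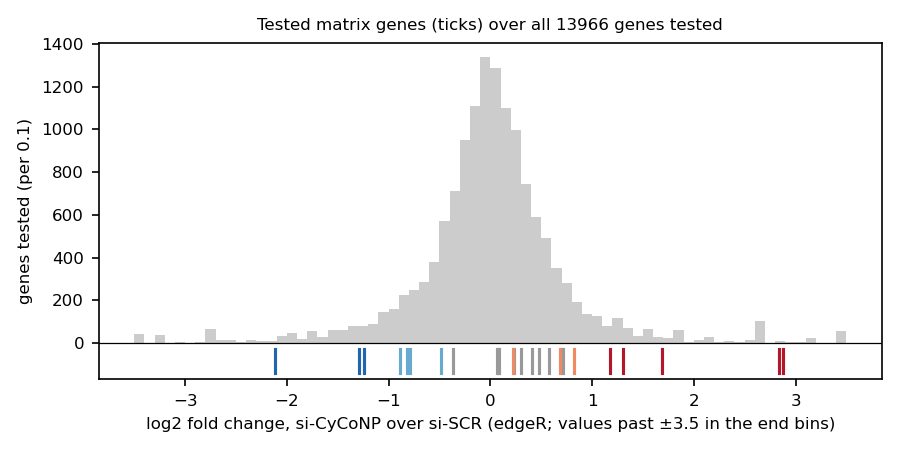
Histogram of the log2 fold changes of all 13966 genes tested (grey, genes per bin of 0.1), with the 26 matrix genes as ticks under the axis, dark red and dark blue for called genes, pale for those past the adjusted p alone and grey for the rest. The matrix genes spread on both sides, with a median of 0.27 beside 0.01 for all genes.

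FN1 (ENSG00000115414, chromosome 2 from 215360440 to 215436073, minus strand, GRCh38) encodes fibronectin, the adhesive glycoprotein that integrins assemble into fibrils. Its level was 0.703, 0.587 and 0.802 FPKM in the si-SCR libraries and 6.31, 4.42 and 5.51 FPKM in the si-CyCoNP libraries, from 52, 38 and 66 counts against 521, 323 and 393. All si-CyCoNP libraries lay far above all si-SCR libraries, and si-SCR replicate 3 did not stand apart. The mean rose from 0.697 ± 0.108 to 5.41 ± 0.949 FPKM (SD, n = 3), at a log2FC of 2.88 (SE 0.162, edgeR adjusted p = 1.30e-13). This rise was known before the list was drawn up, so its p-value is not independent evidence. FN1 was called under all 16 alternative settings that gave it a fold change, with values between 1.91 and 3.01. At 5.41 FPKM in si-CyCoNP, FN1 lay well under LAMC1, BGN and LAMB1 and near COL6A1 (5.83 ± 0.833 FPKM).

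Among the fibrillar collagens, which form the tensile fibres of connective tissue, 3 of 7 genes were tested and all 3 rose. Over all genes tested, 14.2% passed as higher. COL1A1 and COL3A1 passed the filter through si-CyCoNP alone, which favours a rise, so the count of 3 is a description. COL1A1 (chromosome 17 from 50184101 to 50201632), the alpha-1 chain of type I collagen, measured 0.356, 0.569 and 0.426 FPKM in si-SCR against 1.76, 1.41 and 1.33 FPKM in si-CyCoNP. The groups did not overlap, and the log2FC was 1.68 (SE 0.263, edgeR adjusted p = 8.62e-06). COL1A2, the partner chain with which the alpha-1 chain usually assembles, had no count in any of the 6 libraries, where a count of 0 allows up to 3. COL3A1 (chromosome 2 from 188974373 to 189012746), the chain of type III collagen, was lower still, at 0.138, 0.275 and 0.0309 FPKM in si-SCR against 0.894, 1.32 and 0.999 FPKM in si-CyCoNP. This corresponds to 4, 7 and 1 counts against 29, 38 and 28, so the log2FC of 2.83 has a wide standard error of 0.536 (edgeR adjusted p = 2.56e-05), and it did not pass on the log2(FPKM + 1) or log2(FPKM + 0.1) scale (limma, adjusted p up to 0.0729). A microRNA gene, MIR3606, lies in an exon of COL3A1 on the same strand, so that its count is less certain.

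COL5A1, which encodes a chain of type V collagen that sets fibril diameter, had the highest level of the fibrillar collagens, 0.876, 1.41 and 1.39 FPKM in si-SCR against 2.11, 1.90 and 2.23 FPKM in si-CyCoNP. All si-CyCoNP libraries exceeded all si-SCR libraries, and the log2FC was 0.70 (SE 0.185, edgeR adjusted p = 0.00474), which likewise did not pass on log2 FPKM with either pseudocount (limma adjusted p up to 0.0888). The other fibrillar chains were too low for the filter. In a fit without any expression filter, where 15.1% of 26702 genes passed, COL5A2 had a log2FC of 1.60 (edgeR adjusted p = 0.0198) from at most 17 counts in a library and COL27A1 one of 1.68 (edgeR adjusted p = 0.0447) from at most 14. COL11A1 held 2 counts in all.

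**Figure D3:**
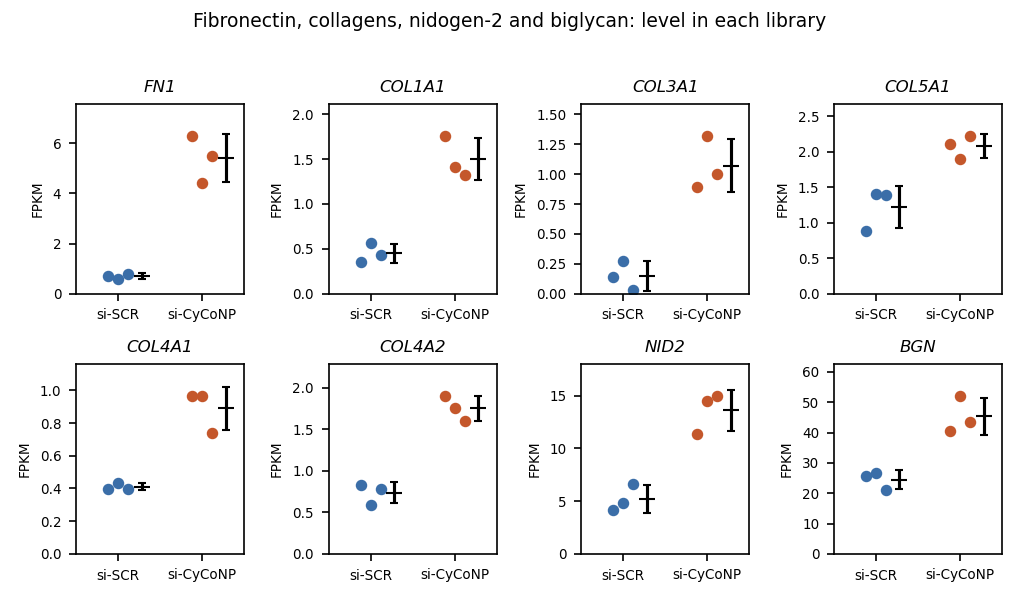
FPKM of FN1, the tested fibrillar collagens, the COL4A1 and COL4A2 pair, NID2 and BGN in each si-SCR (blue) and si-CyCoNP (orange) library, with the mean and SD of 3 libraries beside the points; each axis starts at 0. In all 8 panels the si-CyCoNP libraries lie above the si-SCR libraries, and NID2 is highest among the controls in si-SCR replicate 3 (6.67 FPKM).

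Of the 4 other listed collagens, apart from those of basement membranes, 3 were tested and none of them passed. COL6A1 and COL6A2, chains of the beaded filaments of type VI collagen, and COL9A3, a chain of a collagen bound to the surface of cartilage fibrils, had log2FC values of 0.24, 0.48 and 0.71 (edgeR adjusted p = 0.252, 0.181 and 0.138). COL6A1 was the most abundant collagen of the list, with 4.34, 4.45 and 5.31 FPKM in si-SCR against 5.22, 6.78 and 5.50 FPKM in si-CyCoNP. These groups overlapped, since si-SCR replicate 3 exceeded si-CyCoNP replicate 1. COL6A2 and COL9A3 did not overlap between groups but were measured from at most 45 and 29 counts in a library. COL12A1 held at most 1 count in a library.

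Type IV collagen is the network former of basement membranes, built mainly from the alpha-1 and alpha-2 chains. COL4A2 (chromosome 13 from 110305812 to 110513209, plus strand, a GENCODE span that begins upstream of the RefSeq start and overlaps COL4A1 on the other strand) was at 0.834, 0.593 and 0.781 FPKM in si-SCR and at 1.90, 1.76 and 1.60 FPKM in si-CyCoNP. Its groups lay apart, and the log2FC was 1.18 (SE 0.163, edgeR adjusted p = 2.17e-06). COL4A1 (chromosome 13 from 110148963 to 110307157, minus strand), which starts 10 bases from the promoter stretch shown above, missed the filter narrowly, at 0.397, 0.435 and 0.399 FPKM in si-SCR against 0.966, 0.963 and 0.740 FPKM in si-CyCoNP. Without an expression filter its log2FC was 1.06 (SE 0.252, edgeR adjusted p = 0.000288), from 25, 24 and 28 counts against 68, 60 and 45. The ratio of COL4A2 to COL4A1 in FPKM was 1.81 ± 0.391 in si-SCR and 1.99 ± 0.170 in si-CyCoNP (SD, n = 3), a difference smaller than the spread between the si-SCR libraries.

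Not every basement membrane collagen was higher. COL18A1, the core of a heparan sulphate proteoglycan from which endostatin is cleaved, was at 1.76, 1.82 and 1.53 FPKM in si-SCR against 1.62, 1.39 and 1.11 FPKM in si-CyCoNP. Its groups overlapped and the log2FC of -0.36 did not pass (edgeR adjusted p = 0.199). COL4A5 had 1 count in all, and COL4A6 had none.

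Laminins are trimers of an alpha, a beta and a gamma chain, and the alpha chain sets which receptors bind. Of 8 laminin genes, 5 were tested, and 2 rose and 2 fell, beside 14.2% of all genes in each direction. LAMA5 passed the filter through si-SCR alone. LAMC1, the common gamma-1 chain, was the most abundant of all 54 genes, with 38.5, 34.4 and 33.7 FPKM in si-SCR against 45.5, 41.6 and 43.7 FPKM in si-CyCoNP. Its groups did not overlap, but its log2FC of 0.23 (edgeR adjusted p = 0.0396) was small and was not past the threshold in DESeq2 or without any 1 of si-SCR replicate 2, si-SCR replicate 3, si-CyCoNP replicate 1 and si-CyCoNP replicate 3, where the adjusted p ranged up to 0.171. LAMB1, the beta-1 chain, stood at 25.9 ± 1.33 and 28.3 ± 1.42 FPKM (SD, n = 3) and had a log2FC of 0.06 (edgeR adjusted p = 0.615).

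Among the chains of lower level LAMA4 rose whereas LAMA5 and LAMB2 fell. LAMA4, the alpha-4 chain typical of vessels and of mesenchyme, was at 2.90, 3.08 and 5.81 FPKM in si-SCR and at 7.91, 6.01 and 6.08 FPKM in si-CyCoNP. In this gene si-SCR replicate 3 lay just under the si-CyCoNP libraries, and the log2FC was 0.69 (SE 0.165, edgeR adjusted p = 0.00216). It was 1.07 without si-SCR replicate 3, and it did not pass in DESeq2 or on either log2 FPKM scale (adjusted p up to 0.126). LAMA5 (chromosome 20 from 62307955 to 62367312), the alpha-5 chain found in most mature basement membranes, was at 1.68, 2.25 and 1.96 FPKM in si-SCR and at 0.816, 0.840 and 0.861 FPKM in si-CyCoNP. It was thus lower in every si-CyCoNP library, with a log2FC of -1.29 (SE 0.173, edgeR adjusted p = 1.45e-06). A microRNA gene, MIR4758, lies in an exon of LAMA5 on the same strand. LAMB2, the beta-2 chain of synaptic and glomerular basement membranes, fell from 4.59 ± 0.362 to 2.59 ± 0.307 FPKM (SD, n = 3), at a log2FC of -0.89 (edgeR adjusted p = 5.87e-05), and its groups did not overlap.

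The proportions of the chains differed accordingly. The ratio of LAMA4 to LAMA5 in FPKM was 1.73, 1.37 and 2.96 in the si-SCR libraries and 9.69, 7.16 and 7.06 in the si-CyCoNP libraries. The ratio of LAMB1 to LAMB2 was 5.68 ± 0.726 in si-SCR and 11.01 ± 0.934 in si-CyCoNP (SD, n = 3). Neither ratio overlapped between the groups, and both were formed after the values were seen and are descriptions. The summed level of the 5 alpha chain genes overlapped between groups, at 5.92 ± 1.65 and 7.55 ± 1.03 FPKM (SD, n = 3), and lay far under that of LAMB1 or LAMC1 in every library. LAMA1 had no count, and LAMA2 and LAMA3 had at most 4 and 2 counts in a library.

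**Figure D4:**
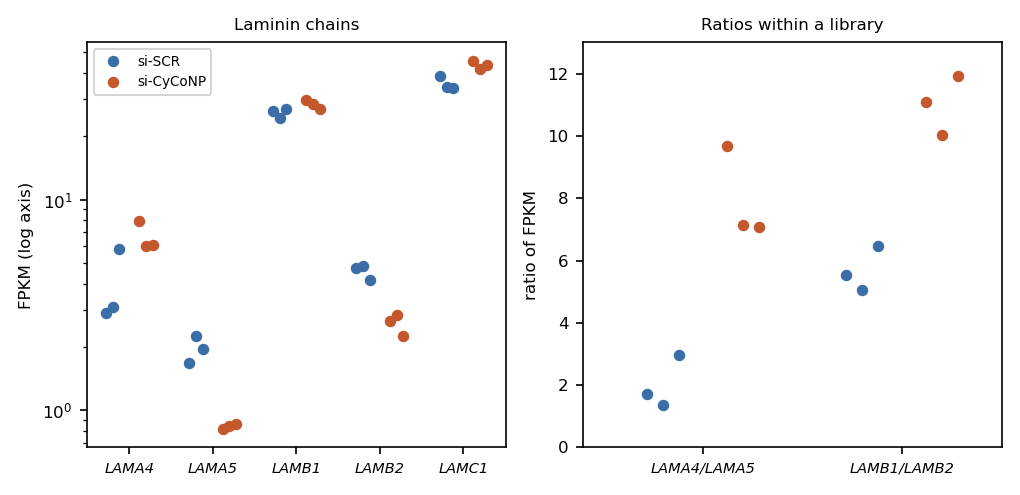
Left, FPKM of the 5 tested laminin chains in each si-SCR (blue) and si-CyCoNP (orange) library on a log axis; right, the ratios LAMA4 to LAMA5 and LAMB1 to LAMB2 within each library on an axis from 0. The si-CyCoNP libraries lie above the si-SCR libraries in both ratios, with LAMA4 to LAMA5 at most 2.96 in si-SCR and at least 7.06 in si-CyCoNP.

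Of the nidogens, perlecan and agrin, 2 of 4 genes were tested. NID2 was higher, and AGRN, which passed the filter through si-SCR alone, was lower. NID2 (chromosome 14 from 52004809 to 52069059), which encodes nidogen-2, was at 4.15, 4.82 and 6.67 FPKM in si-SCR and at 11.3, 14.5 and 15.0 FPKM in si-CyCoNP. The groups were well separated, and the log2FC was 1.30 (SE 0.139, edgeR adjusted p = 3.54e-08), called under all 16 alternatives. NID1, its paralog, had at most 7 counts in a library. AGRN (chromosome 1 from 1020120 to 1056118), which encodes agrin, the heparan sulphate proteoglycan that clusters acetylcholine receptors at the neuromuscular junction, was at 1.36, 1.36 and 1.05 FPKM in si-SCR and at 0.774, 0.459 and 0.403 FPKM in si-CyCoNP. Its log2FC was -1.24 (SE 0.261, edgeR adjusted p = 0.000492), it did not pass on log2 FPKM with either pseudocount (limma adjusted p up to 0.131), and it shares exon sequence with the unnamed gene ENSG00000242590 on the same strand. HSPG2, the gene of perlecan, did not reach the filter, at 0.567 ± 0.196 and 0.644 ± 0.111 FPKM (SD, n = 3), with overlapping groups.

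Of the fibrillins and fibulins, which build and coat elastic microfibrils, FBLN1 was the single gene tested. FBLN1 was at 4.31, 6.64 and 4.16 FPKM in si-SCR and at 3.17, 4.59 and 3.48 FPKM in si-CyCoNP, and the groups overlapped. Its log2FC was -0.49 (SE 0.169, edgeR adjusted p = 0.0312), which rested on single libraries. Leaving out si-SCR replicate 2 gave -0.24, si-CyCoNP replicate 1 -0.38 and si-CyCoNP replicate 3 -0.45, none past the threshold (edgeR adjusted p = 0.338, 0.139 and 0.0774), and it was also lost with library totals alone, in DESeq2 and on the log2 FPKM scales. FBN1, the gene of fibrillin-1, stayed under the filter at 0.173 ± 0.0735 and 0.419 ± 0.0730 FPKM (SD, n = 3), and without a filter its log2FC was 1.22 (SE 0.355, edgeR adjusted p = 0.0043). FBN2, FBLN2 and EFEMP1 had at most 2 counts in a library.

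Matricellular proteins are secreted regulators that bind the matrix without forming its scaffold. SPARC, which encodes a collagen-binding glycoprotein also called osteonectin, was the most abundant of them, with 13.9, 11.6 and 11.5 FPKM in si-SCR against 7.90, 7.40 and 7.12 FPKM in si-CyCoNP. The libraries of each group were tightly spaced, and the log2FC was -0.79 (SE 0.122, edgeR adjusted p = 1.30e-05). SERPINF1 (chromosome 17 from 1762029 to 1777565), the gene of pigment epithelium-derived factor, a neurotrophic and antiangiogenic serpin, was at 1.48, 1.24 and 0.559 FPKM in si-SCR and at 0.209, 0.315 and 0.242 FPKM in si-CyCoNP. Its log2FC of -2.12 came from 19, 14 and 8 counts against 3, 4 and 3 (SE 0.631, edgeR adjusted p = 0.00616), and did not pass on log2 FPKM with either pseudocount (limma adjusted p up to 0.135). The study picked SERPINF1 for its biological relevance from among the genes lower in these libraries, so its direction here is not independent evidence. In a separate experiment, the study reported SERPINF1 lower by RT-qPCR after siRNA silencing of NCAM1. TNC, TNR, POSTN and TGFBI had at most 1 count in a library, and THBS1 and THBS2 at most 4 and 6.

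**Figure D5:**
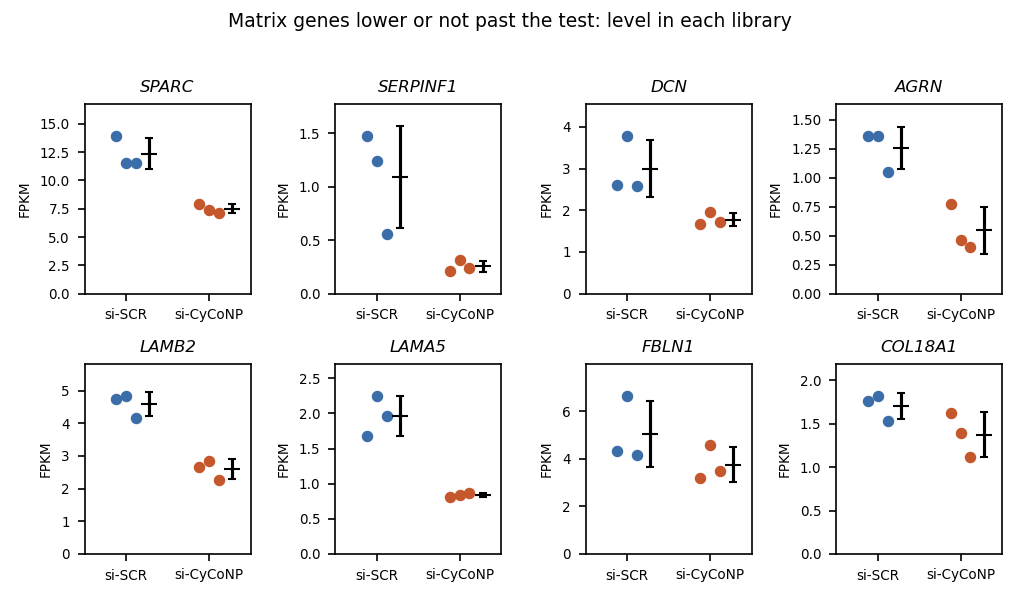
FPKM of 7 matrix genes that fell in si-CyCoNP and of COL18A1, which did not pass the test, in each si-SCR (blue) and si-CyCoNP (orange) library, with the mean and SD of 3 libraries beside the points and axes from 0. The groups are apart for SPARC, SERPINF1, DCN, AGRN, LAMB2 and LAMA5 and overlap for FBLN1 and COL18A1.

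The proteoglycans included a pair of closely related genes with opposite directions. BGN, which encodes biglycan, a small leucine-rich proteoglycan, was at 25.7, 26.8 and 21.0 FPKM in si-SCR and at 40.4, 52.1 and 43.5 FPKM in si-CyCoNP. Its log2FC was 0.82 (SE 0.114, edgeR adjusted p = 2.72e-06). DCN, the gene of decorin, a paralog of biglycan that coats collagen fibrils, was at 2.62, 3.79 and 2.58 FPKM in si-SCR and at 1.66, 1.95 and 1.71 FPKM in si-CyCoNP, with a log2FC of -0.82 (edgeR adjusted p = 0.000224) that did not pass on log2 FPKM with either pseudocount (limma adjusted p up to 0.0588). The ratio of BGN to DCN in FPKM was 8.34 ± 1.39 in si-SCR and 25.5 ± 1.19 in si-CyCoNP (SD, n = 3), without overlap, again a description formed after the values were seen.

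LUM and VCAN did not pass the test. LUM, the gene of lumican, a leucine-rich proteoglycan that lies beside DCN on chromosome 12, was at 2.005, 4.38 and 2.04 FPKM in si-SCR and at 3.198, 4.05 and 5.69 FPKM in si-CyCoNP, with overlapping groups and a log2FC of 0.57 (edgeR adjusted p = 0.146). LUM passed under 2 of 16 alternatives, leaving out si-SCR replicate 2 (1.02, edgeR adjusted p = 0.011) and the replicate block (0.59, edgeR adjusted p = 0.0496). VCAN, which encodes versican, a large chondroitin sulphate proteoglycan of migrating neural crest, had a log2FC of 0.41 just outside the threshold (edgeR adjusted p = 0.0539), and VCAN passed under 5 of 16 alternatives. With all libraries kept these were library totals alone (0.48), no expression filter (0.42) and the replicate block (0.39), and the others were leaving out si-SCR replicate 1 (0.64) or si-CyCoNP replicate 3 (0.60). The brain proteoglycans BCAN and NCAN did not reach the filter, with at most 17 and 3 counts in a library.

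Of the 6 listed enzymes and chaperones that fold and crosslink collagen, 3 were tested and none of them passed. Among 24 further tested genes of collagen folding, processing and crosslinking, from the wider list below, 4 passed as higher and 4 as lower (edgeR). Over all genes tested, 14.2% passed in each direction. P4HA1, a catalytic subunit of the prolyl 4-hydroxylase that stabilises the collagen helix, was at 12.9, 16.8 and 20.1 FPKM in si-SCR and at 12.7, 22.2 and 20.7 FPKM in si-CyCoNP. Its range covered the same levels in both groups, and the log2FC was 0.08 (SE 0.158, edgeR adjusted p = 0.748). Its sign changed without si-SCR replicate 1, si-CyCoNP replicate 2 or si-CyCoNP replicate 3. P4HA2 had a log2FC of 0.07 (edgeR adjusted p = 0.844), also of uncertain sign. SERPINH1, the collagen chaperone HSP47, was at 14.3 ± 2.71 and 18.5 ± 3.19 FPKM (SD, n = 3), at a log2FC of 0.30 (edgeR adjusted p = 0.0604), and likewise passed under 5 of 16 alternatives, namely library totals alone (0.37), no expression filter (0.31), the replicate block (0.31) and leaving out si-SCR replicate 3 (0.44) or si-CyCoNP replicate 1 (0.43). The crosslinking oxidases LOX and LOXL2 had at most 6 and 11 counts in a library, and PLOD2, a lysyl hydroxylase, at most 7.

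In all, 28 of the 54 genes were not tested. Of these, 4 (COL1A2, COL4A6, LAMA1 and FBN2) had no count, 11 had a highest count of 1 to 3 in a library, 6 of 4 to 9 and 7 of 10 or more. The summed level of the 54 genes was 177 ± 2.64 FPKM in si-SCR against 229 ± 12.2 FPKM in si-CyCoNP, and that of the 16 collagen genes 11.4 ± 0.362 and 18.0 ± 1.25 FPKM (SD, n = 3). Neither sum overlapped between the groups, and both are descriptions of a list chosen with results known. FPKM is scaled to library totals, a scaling that places si-CyCoNP slightly higher. With library totals alone the median log2FC of all genes tested was 0.07, beside 0.01 in the main fit. LAMC1, LAMB1, BGN, P4HA1 and SERPINH1 held the highest levels, so the sum over all 54 genes mostly follows these.

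A wider list of 177 further matrix genes, written from general knowledge with earlier results of these data known, placed these values beside the rest of the pathway. Of these, 67 were tested, and 14 passed an adjusted p of 0.05 as higher and 15 as lower (edgeR), shares of both directions to be read beside the 14.2% of all genes in each. The median log2FC was -0.04. Of the other 28 collagens only COL6A6 and COL22A1 reached the filter, and both rose, COL6A6 having passed the filter through si-CyCoNP alone. COL22A1, named here after its values were seen, had a log2FC of 0.64 (edgeR adjusted p = 0.00199). COL6A6, a chain of type VI collagen, went from 0.548 ± 0.296 to 1.93 ± 0.610 FPKM (SD, n = 3), at a log2FC of 1.73 (edgeR adjusted p = 3.38e-05). Under the filter and untested, COL13A1 went from 0.211 to 0.950 FPKM and COL6A3 from 0.113 to 0.501 FPKM (means), without overlap. COL23A1 and COL26A1 were also higher in every si-CyCoNP library, and COL6A5 was lower, from at most 3 counts in a library. Over all genes tested, the groups did not overlap for 40.3%.

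Further structural genes were called in the same list, where ELN passed the filter through si-CyCoNP alone and ADAMTS2, TIMP3 and VTN through si-SCR alone. In all, 6 genes of this list were called higher and 7 lower, against 2.28% and 2.98% of all genes tested. ELN, the gene of elastin, and MFAP4, a microfibril protein, were called higher, with log2FC values of 1.70 and 1.12 (edgeR adjusted p = 6.08e-05 and 0.0118). MFAP4 did not pass without si-CyCoNP replicate 1 (1.01, edgeR adjusted p = 0.0572). VTN, the gene of vitronectin, was called lower from at most 20 counts in a library (log2FC -1.72, edgeR adjusted p = 0.0244). Of 58 further glycoproteins and proteoglycans, 10 were tested, and 3 passed as higher and 2 as lower (edgeR). Over all genes tested, 14.2% passed in each direction. TGM2, a transglutaminase that crosslinks fibronectin, rose from 1.89 ± 0.242 to 6.09 ± 0.0978 FPKM (SD, n = 3), at a log2FC of 1.62 (edgeR adjusted p = 1.19e-09). SEC24D, a coat protein of the vesicles that export procollagen, was called lower with a log2FC of -1.05, as was ADAMTS2, the procollagen N-proteinase, with -1.02 (edgeR adjusted p = 6.95e-09 and 0.00286).

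Of 40 proteases and inhibitors of the matrix, 16 were tested, 2 rose and 7 fell, beside 14.2% of all genes in each direction. TIMP3, an inhibitor of metalloproteinases that binds the matrix, fell from 3.47 ± 0.655 to 0.861 ± 0.260 FPKM (SD, n = 3), at a log2FC of -2.05 (edgeR adjusted p = 8.30e-07). Its relative TIMP2 fell from 25.3 ± 1.06 to 13.1 ± 1.26 FPKM, at a log2FC of -1.01 (edgeR adjusted p = 5.86e-09). ADAMTS19 and MMP15 had log2FC values of -1.29 and -1.03 (edgeR adjusted p = 2.00e-09 and 0.000208). MMP24, a membrane-bound metalloproteinase of the nervous system, moved the other way, from 6.96 ± 0.352 to 25.1 ± 1.84 FPKM (SD, n = 3), at a log2FC of 1.78 (edgeR adjusted p = 2.31e-12). Several of these values lay close to the fold threshold, and SEC24D, TIMP2, MMP15 and ADAMTS2 were called under 12, 10, 11 and 9 of 16 alternatives. Of 20 TGF-beta ligands, receptors and latency proteins, 15 were tested, 3 rose and 2 fell, shares near the 14.2% of all genes in each direction. SMAD3, which carries the TGF-beta signal to the nucleus, was called higher with a log2FC of 1.13 (edgeR adjusted p = 4.74e-09).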

How the data were processed

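RNA sequencing of 6 SK-N-BE libraries was analysed. Per the labels and the study's methods, the authors made stranded, rRNA-depleted total RNA libraries, trimmed reads with Trimmomatic 0.39 and Cutadapt 3.2, removed ribosomal reads with Bowtie2 2.4.2 and aligned them to GRCh38 with STAR 2.7.7a. The deposited count table holds the authors' raw counts of uniquely mapping fragments per Ensembl gene, so fragments shared by overlapping genes or near-identical copies are missing. The deposited FPKM table holds fragments per kilobase of gene, scaled to the counted fragments of each library. The methods name no removal of duplicates whereas a supplementary legend mentions one, so whether counts are deduplicated is not settled here. Groups and replicate numbers came from the sample titles. The counted fragments numbered 3762009 to 4799407 per library, which limits genes under about 10 counts. These are far fewer than the reads per sample that the study reports, and the reason was not tested.

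The 13966 genes whose FPKM averaged 1 or more in si-SCR or in si-CyCoNP were tested with edgeR 4.0.16 (TMM, quasi-likelihood test, R 4.3.3) and Benjamini-Hochberg adjustment over all of them. This FPKM filter also admits short genes of few counts, such as microRNA genes, which enter the shares over all genes. The study's thresholds (adjusted p under 0.05, log2 fold change beyond 1) define a call. The study's methods name DESeq2, which was run as an alternative (1.42.0). The fits were tested on simulated data. The 54 genes and all lists were chosen with earlier results of these data known. All 54 are accounted for, and values in each library are given for FN1, called genes and the most abundant gene of each role. Of the wider list at most the 6 called genes of smallest p in each direction are named. COL22A1 and VTN, and the untested COL13A1, COL6A3, COL23A1, COL26A1 and COL6A5, were added to these after their values were seen. Positions are from GENCODE 44 (GRCh38). The alternatives were DESeq2, 3 other scalings, 2 other filters, the replicate number as a block, limma 3.58.1 on log2(FPKM + 1) and log2(FPKM + 0.1), glmTreat, and leaving out each library. A filter on the mean FPKM over all 6 libraries was added after seeing the data. The result of 1 Schwann and glial marker gene, and the summed level of that list, which depends on it, are not reported here.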

Additional observations from a re-analysis of the deposited data

How the results depend on the processing

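FN1 kept its direction and its call under all 16 alternatives, from 1.91 in limma with a pseudocount of 1 to 3.01, and leaving out each library gave 2.75 to 3.01. Without an expression filter 9 matrix genes were called higher and 3 lower, and 15 passed the adjusted p as higher and 7 as lower. The median log2 fold change of the 50 matrix genes in this fit was 0.53. Among the 50 were genes of at most 4 counts in all, such as NCAN (3.47) and FBLN2 (-3.23). Over all 26702 genes of this fit, 431 were called higher and 520 lower, with a median of -0.0051. With the default filter of edgeR the median of the matrix genes was 0.41, beside 0.0007 for all genes. A filter on the mean over all 6 libraries, chosen after seeing the data, left 3 called higher and 1 lower. Over all 13075 genes under that filter, 278 were called higher and 373 lower. In limma on log2(FPKM + 1), in which low values are compressed by construction, 2 were called higher and 0 lower, 3 passed as lower (8 in the wider list), and over all genes 207 were called higher and 180 lower, against 319 and 416. With log2(FPKM + 0.1), 1 was called lower, 3 passed as lower (8 in the wider list) and the median was 0.34. Over all genes on this scale, 323 were called higher and 292 lower, and the median was 0.07. Testing against a log2 fold change of 1 (glmTreat) left 2 called higher and 0 lower (3 by the edgeR test against no change), and 45 and 88 over all genes. With library totals alone the median was 0.33, beside 0.07 for all genes (0.27 and 0.01 in the main fit). Leaving out each library gave log2 fold changes of -0.0636 to 0.30 for P4HA1 (-0.0619 without si-SCR replicate 1, -0.0166 without si-CyCoNP replicate 3) and of -0.18 to 0.28 for P4HA2 (-0.0094 when si-SCR replicate 1 was left out). Leaving out each library, 4 to 6 matrix genes were called higher and 2 to 3 lower. Over all genes, 295 to 400 were called higher and 359 to 507 lower when a si-SCR library was left out. The cause of these differences was not tested, beyond the filters, which change the genes tested. Same-numbered libraries deviated together only weakly (r = 0.0907, 0.0727 and 0.108), although each si-SCR library correlated best with its own number, so the numbers were not taken as pairs. With the replicate number as a block 12 matrix genes passed as higher and 7 as lower, with 5 and 3 called. Over all genes, 330 were called higher and 422 lower with this block.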
